A study of Homo sapiens with 24 samples.

Results

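WNK2 null chondrocytes were compared with chondrocytes transfected with WNK2, both kept in hyperosmotic medium. The comparison was chosen by label: it takes the 4 libraries labelled WNK2- Sor and the 4 labelled WNK2 trans Sor, 8 of the 24 RNA-seq libraries considered, and 16600 of the 62703 counted gene identifiers had enough reads to be tested. T/C-28a2 is an immortalised human costal chondrocyte line. The WNK2- cells are 1 clonal line made from it, in which Cas9 ribonucleoprotein removed exon 2 of WNK2 with its start codon, and they were not transfected. The WNK2 trans cells have the unedited genotype and received a plasmid carrying wild-type WNK2 by lipofection 48 hours before the medium was changed. Both groups then spent 7 days in medium with 100 mM sorbitol added. No empty-vector group was analysed here, so the edit, the single clone, the transfection itself and the level of WNK2 cannot be told apart in this comparison. The other groups, namely WNK2- Ctr, the libraries labelled WNK2 trans Ctr, WT Ctr and those labelled WT Sor (Ctr, isotonic medium; WT, unedited and untransfected), entered the fit to share its estimate of spread, and the libraries labelled WT Sor are quoted beside some genes, with the limit given below.

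WNK2 belongs to a small family of kinases with an unusually placed catalytic lysine that sense cell volume and intracellular chloride. They act through the kinases STK39 (SPAK) and OXSR1 (OSR1) on the cation-chloride cotransporters, which move sodium, potassium and chloride together, and WNK2 has also been described as a brake on EGF and ERK signalling. Chondrocytes live in a matrix rich in fixed charge, where osmolarity rises and falls with load, and they answer hyperosmotic stress by taking up or making organic osmolytes and by changing matrix, protease and inflammatory gene expression.

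Total counts were 18578564 to 25664619 in the WNK2- Sor libraries and 14908600 to 19054291 in the WNK2 trans Sor libraries, with 22733 to 24189 and 20032 to 21468 genes holding a read. The labels number the 4 samples of a group without saying whether they were separate cultures, and the study's methods call them biological replicates. How far they were separate was not checked here, so p-values measure the spread between these samples, which may be technical. Replicates within both groups differed by more than counting error (chi-square per degree of freedom 5.98 to 25.4 and 12 to 67.9). The labels were checked on WNK2 and on markers. The libraries labelled WNK2 trans Ctr held 252 ± 52.8 normalized counts of WNK2 (SD, n = 4) against 2520.0 ± 901 in WT Ctr, which goes against their label. The libraries labelled WT Sor, of unedited cells, held 303 ± 19, as little as the null line, although that label names no WNK2 level. The study reports normalized WNK2 counts with no significant change after sorbitol or after transfection. For the libraries labelled WNK2 trans Ctr and WT Sor the counts used here differ from that report. Both groups are called by their labels below, and a level in either places a gene among these libraries only, not against wild-type cells. Of 10 chondrocyte markers 7 could be tested. SOX9 had no read in any of the 12 sorbitol libraries. The study likewise reports no SOX9 in its RNA-seq of this line, although it measured SOX9 there by qPCR. Counting that skips reads on overlapping genes can leave an expressed gene at 0, so this does not show that SOX9 was absent. COL2A1 (8 to 32 reads) and ACAN (4 to 49 reads) were near the limit in the 8 libraries compared. Fibrillar collagen COL1A1 was high (15306 to 24818 reads), and of 6 macrophage and leukocyte markers PTPRC, CD68, LYZ and AIF1 had at most 13 reads while CD14 had 35 to 91 (lower in WNK2- Sor, −1.22, adjusted p = 2.65e-05) and CSF1R 35 to 100 (not called). The summed level of the 10 chondrocyte markers was 25.1 to 29.2 CPM (counts scaled to a common library total) in WNK2- Sor and 115 to 170 in WNK2 trans Sor, and most of it was HAPLN1. The sum of 6 endothelial markers was 37.8 to 48.5 and 103 to 109.7 CPM, with 2 of 5 tested members called higher and 2 lower. Of 8 fibroblast markers 6 were tested and 4 called lower, with sums of 991 to 1203 and 1196 to 1923 CPM. Most of each sum was COL1A1, which was not called. In the 8 libraries THY1 had 0 reads, COL1A2 at most 9 and DCN at most 5. Of 6 epithelial markers 4 were tested and none called, with sums of 847 to 1030 and 765 to 1215 CPM. Among these, KRT8 had 6855 to 14577 reads and KRT18 5449 to 7530 in the 8 libraries. Of 5 osteoblast markers 1 was tested and it was not called. The part of other cell types in the results was not tested. In bulk RNA, fewer cells of a kind and less RNA per cell cannot be told apart.

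**Figure D1:**
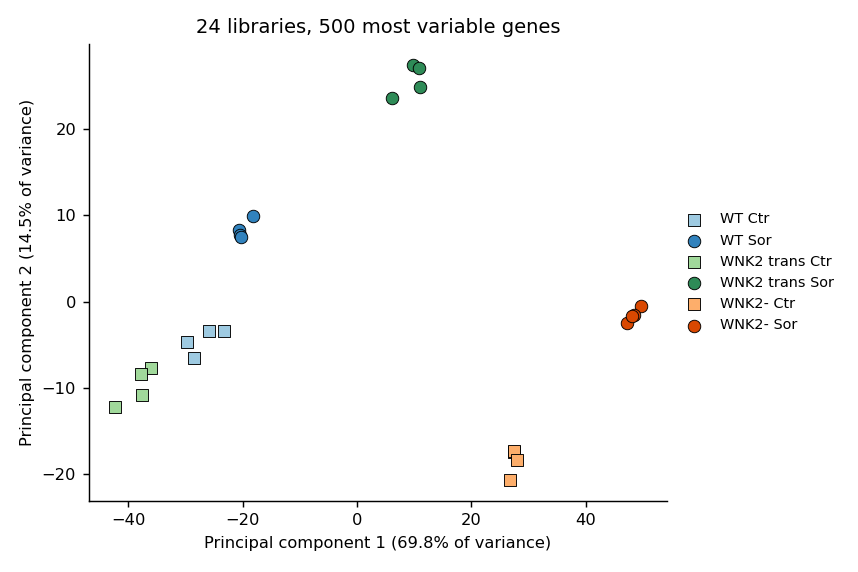
Principal components 1 and 2 (axes, with their share of the variance) of the 24 libraries over the 500 most variable genes; circles are libraries kept in sorbitol, squares libraries in isotonic medium, and colours are the 6 groups. The 4 WNK2- Sor libraries sit at 47.2 to 49.6 on component 1 and the 4 WNK2 trans Sor libraries at 6.08 to 11, so the compared groups do not overlap.

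In the map of the 24 libraries the first component carried 69.8% of the variance and the second 14.5%. The WNK2 trans Sor libraries lay at 23.6 to 27.5 on the second component, above every other group, and the WNK2- Sor libraries at −2.45 to −0.52. WNK2 trans Sor replicate 1 was the lowest of its group on both components.

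WNK2 itself (GRCh38 chromosome 9, 93184916 to 93320572, plus strand) was 340.1, 419, 311 and 367 normalized counts in the 4 WNK2- Sor libraries and 3793, 2245, 2659 and 3433 in the 4 WNK2 trans Sor libraries (replicates 1 to 4). A normalized count is a read count rescaled so that all 24 libraries have the same effective size, the total after TMM scaling. All 4 transfected libraries were above all 4 null libraries, 8.43-fold on average (log2 fold change −3.08, standard error 0.21, adjusted p = 1.45e-11). Every adjusted p comes from the quasi-likelihood F test of edgeR and was adjusted by the Benjamini-Hochberg method over the 16600 genes. The libraries labelled WT Sor were not called different from the null line (adjusted p = 0.33). WT Ctr, in isotonic medium, spanned 1441 to 3409, which overlaps the WNK2 trans Sor libraries, so the gap between the compared groups does not show WNK2 raised above unedited cells. Counts cover the whole gene, so that transcripts with and without exon 2 were not separated, nor were reads from the plasmid and from the genomic locus.

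The other WNK kinases were not called. WNK1 was 8481 ± 266 normalized counts in WNK2- Sor and 7049 ± 801 in WNK2 trans Sor (SD, n = 4 in each, as throughout; log2 fold change 0.27, standard error 0.13, adjusted p = 0.113), and once trends with GC content and length were removed it passed at 0.26 (adjusted p = 0.00457). WNK3 (log2 fold change −0.25, standard error 0.16, adjusted p = 0.227) and WNK4 (log2 fold change 0.13, standard error 0.12, adjusted p = 0.434) differed by less than their spread allowed to call. The WNK pathway list holds WNK1 to WNK4 together with their partners. Of its 21 members 19 were tested, of which 4 were called higher and 5 lower in WNK2- Sor. WNK2, the gene edited or transfected, is 1 of the 5 lower members. The median log2 fold change of the list was −0.21. The background for such counts is that 33.3% of all tested genes were called, 16.3% higher and 17.0% lower, with a median log2 fold change of 0.01. STK39, the SPAK kinase, was lower (1315 ± 102 normalized counts in WNK2- Sor and 1889.8 ± 297 in WNK2 trans Sor, log2 fold change −0.52, standard error 0.10, adjusted p = 0.000162), and its relative OXSR1 was not called (−0.05, adjusted p = 0.73). SGK1, a serum and glucocorticoid kinase that responds to osmotic stress, was 4129 ± 189 normalized counts in WNK2- Sor and 6709.7 ± 324 in WNK2 trans Sor (log2 fold change −0.70, standard error 0.08, adjusted p = 1.24e-07). CUL3, the scaffold of the ubiquitin ligase that degrades WNK kinases, was lower too (−0.54, adjusted p = 0.000138).

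Of the 7 cotransporters on the list 6 were tested, 3 were called higher and none lower. SLC12A7, the potassium chloride cotransporter KCC4, was 3459, 3867, 3132 and 3521 normalized counts in the WNK2- Sor libraries and 1384, 957, 1368 and 1491 in the WNK2 trans Sor libraries, 2.69-fold higher in the null line (log2 fold change 1.43, standard error 0.13, adjusted p = 2.39e-09) and without overlap between the groups. The tested genes around it also rose: the median log2 fold change was 1.15 over 21 neighbours within 2.5 Mb, a stretch described with the chromosomes below. SLC12A4 (KCC1) was 1752 ± 179.5 normalized counts in WNK2- Sor and 1273 ± 215 in WNK2 trans Sor (log2 fold change 0.46, standard error 0.10, adjusted p = 0.000741). SLC12A2, the sodium potassium chloride cotransporter NKCC1, was 1410.3 ± 146 normalized counts in WNK2- Sor and 1023 ± 145 in WNK2 trans Sor (log2 fold change 0.46, standard error 0.16, adjusted p = 0.0268). That call did not survive leaving out any 1 of 5 libraries, WNK2- Sor replicates 1, 3 and 4 and WNK2 trans Sor replicates 1 and 4. Without WNK2 trans Sor replicate 1 the list held 2 higher and 8 lower members.

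Of genes of cell volume and tonicity 19 of 21 members were tested, of which 5 were called higher and 2 lower in WNK2- Sor, with a median log2 fold change of 0.23, and the share called, 36.8%, was near the background. SLC6A12, the betaine transporter BGT1 that imports an osmolyte under hypertonic stress, was 337, 333, 304 and 287 normalized counts in the WNK2- Sor libraries and 118, 72.3, 70.8 and 114 in the WNK2 trans Sor libraries (log2 fold change 1.75, standard error 0.23, adjusted p = 1.48e-06). AKR1B1, the aldose reductase that makes sorbitol from glucose, was 45955 ± 629 normalized counts in WNK2- Sor and 26756 ± 4155 in WNK2 trans Sor (log2 fold change 0.78, standard error 0.11, adjusted p = 4.87e-06). LRRC8E, a subunit of the volume-regulated anion channel, rose 2.06-fold (log2 fold change 1.05, standard error 0.18, adjusted p = 5.9e-05). NFAT5, the transcription factor of the tonicity response, was 4444, 3418, 4251 and 3724 and 2901, 5555, 5553 and 4961 in the same order and was not called (−0.26, adjusted p = 0.48), nor was the taurine transporter SLC6A6 (0.04, adjusted p = 0.776). PIEZO2, a stretch-gated channel, was lower in the null line (1651 ± 102 normalized counts in WNK2- Sor and 4483 ± 658 in WNK2 trans Sor, log2 fold change −1.44, standard error 0.14, adjusted p = 1.68e-08). The amino acid transporter SLC38A2 was lower by a smaller step (−0.50, adjusted p = 0.00243). With the GC and length correction the list held 8 higher and 4 lower members.

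Over all genes the comparison called 5523 of 16600 genes, 2698 higher and 2825 lower in WNK2- Sor, and for 4280 of them no library of one group overlapped the other. A change of more than 2-fold was called for 794 genes in the higher and 865 in the lower direction. The number called was 4650 to 6313 when single libraries were left out, highest without WNK2 trans Sor replicate 1, 4570 when the 8 libraries were fitted without the other groups, and 2957 when the test asked for a change beyond 0.3 on the log2 scale.

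The 12 largest falls among well expressed genes were led by extracellular and inflammatory genes. SULF1, a sulfatase that trims 6-O-sulfates from heparan sulfate outside the cell (GRCh38 chromosome 8, 69466624 to 69660915), was 178, 136, 151 and 169 normalized counts in the WNK2- Sor libraries and 5367, 5582, 4625 and 4439 in the WNK2 trans Sor libraries, 31.5-fold lower in the null line (log2 fold change −4.98, standard error 0.13, adjusted p = 3.05e-19). CEMIP, which degrades hyaluronan (GRCh38 chromosome 15, 80779343 to 80951776), was 98.3, 102, 95.6 and 110.3 normalized counts in the WNK2- Sor libraries and 1785, 2289.6, 3208 and 2699 in the WNK2 trans Sor libraries (log2 fold change −4.62, standard error 0.25, adjusted p = 2.12e-13). The groups were far apart for both. SCG2 (secretogranin II, −3.98), ABCG1 (a cholesterol exporter, −3.70), CYP1B1 (a cytochrome P450 that handles oestrogens and aryl hydrocarbons, −3.50) and EGR1 (an immediate early transcription factor, −3.48) were among the 12, each with an adjusted p of at most 1.82e-11. The other 6, CSF3, OASL, PTGS2, MX2, PTGES and IFI44L, belong to groups described below. The libraries labelled WT Sor stood above the transfected ones for SULF1 (18145 ± 1269) and SCG2 (1635 ± 46.1), and below them for CEMIP (653 ± 96.6).

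The 12 largest rises held 9 coding genes and 3 long noncoding RNAs. TAGLN, the actin-binding protein transgelin (GRCh38 chromosome 11, 117199321 to 117204782), was 1269, 1341, 1402 and 1536 normalized counts in the WNK2- Sor libraries and 310.5, 245, 235 and 252 in the WNK2 trans Sor libraries (log2 fold change 2.41, standard error 0.13, adjusted p = 3.06e-13). HSPB8, a small heat shock protein of chaperone-assisted autophagy, was 1141, 1095, 1165 and 1151 normalized counts in the WNK2- Sor libraries and 212, 197, 223 and 208 in the WNK2 trans Sor libraries (log2 fold change 2.44, standard error 0.12, adjusted p = 4.8e-14). ABI3BP, a matrix protein (2.81), GFRA1, the GDNF receptor (2.76), and ARHGAP24, a GTPase-activating protein for Rac (2.54), were also among the 12. So were NEURL1 (2.53), PDE1C, a calmodulin-dependent phosphodiesterase (2.49), AHNAK2 (2.42) and SHISA3, a WNT and FGF receptor antagonist (2.42). Each of these was higher with an adjusted p of at most 2.31e-09. LINC02582 was 1325, 1089, 1165 and 1207 normalized counts in the WNK2- Sor libraries and 120.3, 145, 119 and 110.2 in the WNK2 trans Sor libraries (log2 fold change 3.27, standard error 0.18, adjusted p = 2.14e-12) and held 6.39 ± 4.18 in the libraries labelled WT Sor. LINC02009 (3.05) and LINC01293 (2.22) were ordered in the same way, null line highest and the libraries labelled WT Sor lowest.

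**Figure D2:**
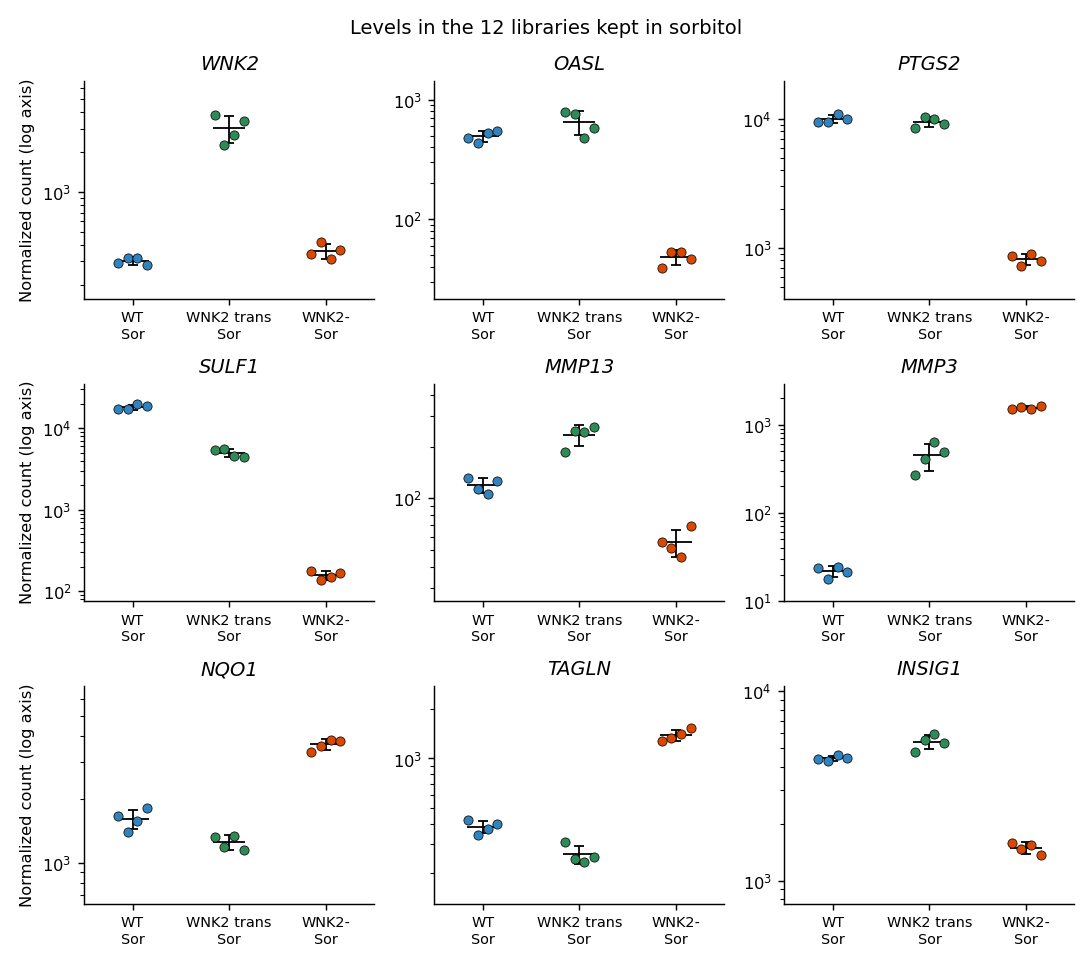
Normalized counts (log axis) of 9 genes in the 12 libraries kept in sorbitol; each point is a library, bars give the mean and the SD of 4. In none of the 9 do the WNK2 trans Sor and WNK2- Sor points overlap, and the libraries labelled WT Sor lie beside WNK2- Sor for WNK2 but beside WNK2 trans Sor for PTGS2.

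Interferon response genes gave the most one-sided result of the lists used here. Type I interferon, made when a cell senses foreign nucleic acid, acts through transcription factors, STAT2 and IRF9 among them, that bind the interferon-stimulated response element in front of antiviral genes. Of 50 listed genes, 39 were tested, 36 were called lower in WNK2- Sor, none was called higher, and the median log2 fold change was −1.86. All 36 had no overlap between the groups, and 35 to 36 were called lower whichever library was left out. Transfection with plasmid DNA was given to one group only, and its part in these genes was not tested.

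The members with the largest called falls at a usable level show the pattern. OASL, an antiviral protein of the 2′-5′ oligoadenylate synthetase family (GRCh38 chromosome 12, 121019111 to 121039242), was 38.9, 53.4, 53.1 and 46.7 normalized counts in the WNK2- Sor libraries and 794, 761, 481 and 583 in the WNK2 trans Sor libraries, 13.7-fold lower in the null line (log2 fold change −3.77, standard error 0.19, adjusted p = 6.01e-14). MX2, a dynamin-like antiviral GTPase, was 56.7, 58.4, 51.2 and 50.5 normalized counts in the WNK2- Sor libraries and 667, 566, 596 and 497 in the WNK2 trans Sor libraries (log2 fold change −3.42, standard error 0.14, adjusted p = 1.85e-15). BST2, tetherin, which holds budding virus on the cell surface, was 10.9, 32.5, 37.7 and 21.5 normalized counts in the WNK2- Sor libraries and 478, 194, 211 and 239.6 in the WNK2 trans Sor libraries (log2 fold change −3.47, standard error 0.32, adjusted p = 4.67e-09). IFI44L fell to 101 ± 6.2 from 1005 ± 60.5 (log2 fold change −3.31, standard error 0.20, adjusted p = 1.24e-12). XAF1, an interferon-induced pro-apoptotic gene, had 0 to 2 reads in the null libraries and 250 to 371 in the transfected ones. Its position in the plot of interferon genes therefore rests on almost no null reads.

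The transcription factors STAT2 and IRF9 were lower by smaller steps. STAT2 was 1038 ± 58.8 normalized counts in WNK2- Sor and 2037 ± 112 in WNK2 trans Sor (log2 fold change −0.97, standard error 0.08, adjusted p = 6.3e-10) and IRF9 31.8 ± 1.25 normalized counts in WNK2- Sor and 98.9 ± 4.13 in WNK2 trans Sor (log2 fold change −1.63, standard error 0.27, adjusted p = 3.19e-05). JAK2, a kinase of the interferon gamma and cytokine receptors, was 306, 246, 292 and 283 normalized counts in the WNK2- Sor libraries and 489.8, 812, 724 and 809.8 in the WNK2 trans Sor libraries (log2 fold change −1.33, standard error 0.18, adjusted p = 3.53e-06), in a stretch of chromosome 9 where neighbours fell as well (−0.77 over 24 neighbours). The 3 tested members that were not called were GBP2 (−0.25), IFI27 (−0.16) and IFITM2 (0.44).

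For 30 of the 39 tested members the mean of the libraries labelled WT Sor lay between those of the compared groups. OASL was 495 ± 50.7 there and was not called different from WNK2 trans Sor (adjusted p = 0.0586), whereas MX2 (246 ± 28.2) and IFI44L (302 ± 92.6) were below the transfected level. BST2 was 374 ± 28.4, with no call against the transfected cells (adjusted p = 0.228). Against the libraries labelled WT Sor, 46.3% of tested genes were called for WNK2- Sor and 31.7% for WNK2 trans Sor. Both of these comparisons share libraries with the main one and are given only to place a gene.

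**Figure D3:**
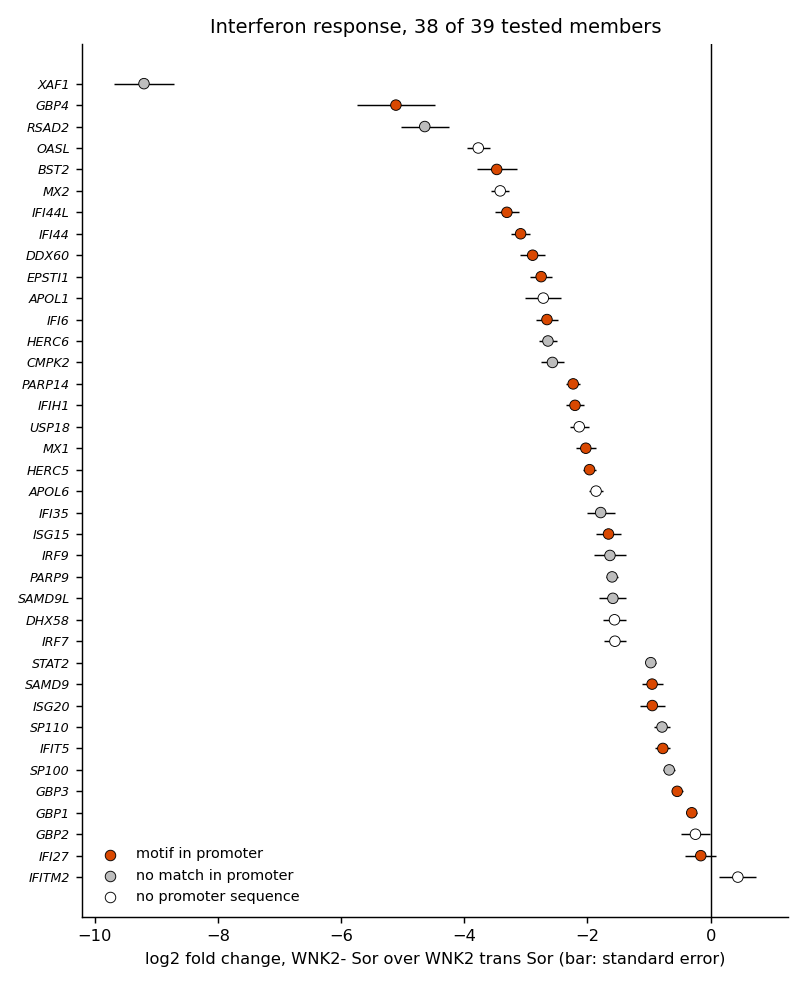
Log2 fold change of WNK2- Sor over WNK2 trans Sor (x axis; bars, standard error) for 38 of the 39 tested interferon response genes, sorted; filled orange points have the response element core in the 300 bases around their start, grey points have none and white points had no promoter sequence. All but 1 gene, IFITM2, lie below 0.

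Promoters were searched for the core of the interferon-stimulated response element, GAAANNGAAA, on both strands, in RefSeq sequences of build GRCh38.p14 that run from 250 bases before to 50 after each start; overlapping matches were counted separately. Of 37 listed interferon genes with a sequence, 23 held it (62.2%), against 996 of 27305 promoters in all (3.65%); among the 28 called lower it was in 17. Cytokines and chemokines held it in 6 of 31 and the complement and MHC class I list in 8 of 22, while 0 of 18 cholesterol genes and 0 of 43 TGF-beta and BMP genes with a sequence did. A match is a run of letters and not a shown binding site. Below are 70 bases around the match nearest the start, for 4 members and for ISG15, a ubiquitin-like protein of the list. The 4 have the largest called falls at a mean log2 CPM of at least 1 among members that hold a match. Each is written 5′ to 3′ on the gene's strand, with the core in capitals on whichever strand it was found.

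BST2, chr19:17405715-17405784, minus strand: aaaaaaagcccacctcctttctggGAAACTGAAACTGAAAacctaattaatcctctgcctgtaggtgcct

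IFI44L, chr1:78620345-78620414, plus strand: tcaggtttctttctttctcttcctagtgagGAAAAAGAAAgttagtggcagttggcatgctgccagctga

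IFI44, chr1:78649741-78649810, plus strand: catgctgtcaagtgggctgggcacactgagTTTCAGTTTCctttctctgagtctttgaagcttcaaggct

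DDX60, chr4:168318766-168318835, minus strand: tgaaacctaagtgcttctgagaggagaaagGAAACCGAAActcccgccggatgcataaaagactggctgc

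ISG15, chr1:1013360-1013429, plus strand: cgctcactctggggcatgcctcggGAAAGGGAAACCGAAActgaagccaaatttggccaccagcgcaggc

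The first base of the match nearest the start lay 124 bases before the start in BST2, 73 in IFI44L, 18 in IFI44, 53 in DDX60 and 107 in ISG15. In BST2 and ISG15 a pair of cores overlap, and in IFI44 the core is read on the opposite strand. The log2 fold changes were −3.47 for BST2, −3.31 for IFI44L, −3.08 for IFI44, −2.89 for DDX60, a helicase-like antiviral factor, and −1.66 for ISG15.

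Cytokines, chemokines and prostaglandin enzymes were lower in the null line as well, with exceptions. Of the cytokine and chemokine list 28 of 40 members were tested, of which 3 were called higher and 16 lower in WNK2- Sor, with a median log2 fold change of −1.12. CSF3, the granulocyte colony-stimulating factor, was 63.5, 77.5, 38.6 and 71 normalized counts in the WNK2- Sor libraries and 1369, 602, 852 and 966 in the WNK2 trans Sor libraries (log2 fold change −3.91, standard error 0.24, adjusted p = 2e-12). IL6 was 623, 585, 638 and 549.7 normalized counts in the WNK2- Sor libraries and 3642, 3037, 2422 and 2445 in the WNK2 trans Sor libraries (log2 fold change −2.27, standard error 0.13, adjusted p = 1.1e-12). The neutrophil chemokines CXCL1 (−2.34), CXCL2 (−1.5), CXCL3 (−2.48) and CXCL8 (−1.71), the monocyte chemokine CCL2 (−1.90) and the IL-6 family members LIF (−1.22) and IL11 (−1.53) were all called lower. IL11 was 2264, 3402, 2536 and 2954 in the null and 13139, 5264, 6599 and 7325 in the transfected libraries, where replicate 1 was far above the other 3. In the libraries labelled WT Sor, CXCL8 was 641 ± 42.2 and IL6 1636 ± 151, below the transfected cells in both cases, and CXCL8 also below the null line.

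Moving the other way, IL1B was 2500.0, 2552, 2539.6 and 2631 normalized counts in the WNK2- Sor libraries and 1349, 1105, 925 and 1085 in the WNK2 trans Sor libraries (log2 fold change 1.20, standard error 0.15, adjusted p = 5.51e-07), with 222 ± 31.9 in the libraries labelled WT Sor. The eosinophil chemokine CCL26 (82 ± 8.86 normalized counts in WNK2- Sor and 17.8 ± 6.29 in WNK2 trans Sor, log2 fold change 2.21, standard error 0.44, adjusted p = 0.000341) and IL32 (1.04, adjusted p = 3.37e-05) were the only other members called higher, and 5 were called without WNK2 trans Sor replicate 1. IL1A was 127 ± 15.3 normalized counts in WNK2- Sor and 128 ± 26.4 in WNK2 trans Sor, which did not pass (−0.02, standard error 0.23, adjusted p = 0.968).

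In the NF-kB and innate signalling list, 35 of 45 members were tested, of which 4 were called higher and 17 lower in WNK2- Sor, with a median log2 fold change of −0.43. PTGS2, cyclooxygenase 2 (GRCh38 chromosome 1, 186671791 to 186680427), was 862, 726, 889.7 and 785 normalized counts in the WNK2- Sor libraries and 8571, 10329.7, 10068 and 9113 in the WNK2 trans Sor libraries, 11.7-fold lower in the null line (log2 fold change −3.54, standard error 0.17, adjusted p = 1.42e-14). PTGES, which makes prostaglandin E2 from the product of PTGS2, was 40.3, 47.5, 54.1 and 52.3 normalized counts in the WNK2- Sor libraries and 619.7, 403, 472 and 519 in the WNK2 trans Sor libraries (log2 fold change −3.38, standard error 0.16, adjusted p = 2.54e-14). Both enzymes of this step therefore fell together, and the libraries labelled WT Sor were not called different from the transfected cells for either (9975 ± 698 and 442 ± 33.2). The adhesion molecules ICAM1 (−2.84, adjusted p = 1.75e-12) and VCAM1 (−2.59, adjusted p = 4.04e-14), the manganese superoxide dismutase SOD2 (−1.33, adjusted p = 3.51e-12) and the inhibitor NFKBIA (−0.71, adjusted p = 0.000139) were lower. The members called higher were NFKB1 (0.26), IL17RA (0.40), IRAK1 (0.60) and IL6R (1.23); 7 were called higher without WNK2 trans Sor replicate 1. RIPK2 was not called (1148 ± 117 normalized counts in WNK2- Sor and 1238 ± 74.9 in WNK2 trans Sor, adjusted p = 0.461).

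Complement and antigen presentation followed. Of that list 25 of 32 members were tested, of which 1 was called higher and 13 lower in WNK2- Sor, with a median log2 fold change of −0.54. C3, the central complement component, was 394, 419, 312 and 451 normalized counts in the WNK2- Sor libraries and 3245, 2607, 2851 and 2970.2 in the WNK2 trans Sor libraries (log2 fold change −2.89, standard error 0.10, adjusted p = 2.44e-17), and C1R, a protease of the first component, was 503 ± 61.1 normalized counts in WNK2- Sor and 2182 ± 475 in WNK2 trans Sor (log2 fold change −2.12, standard error 0.14, adjusted p = 4.83e-12). The class I heavy chains HLA-B (−1.21), HLA-C (−0.93) and HLA-F (−1.45) were called lower, and so was their partner B2M (−0.58, adjusted p = 0.00191). HLA genes are near-identical copies, so reads may be divided between them with error. CLU, clusterin, was the member called higher (635 ± 45.2 normalized counts in WNK2- Sor and 348 ± 48.2 in WNK2 trans Sor, log2 fold change 0.87, standard error 0.14, adjusted p = 2.06e-05).

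**Figure D4:**
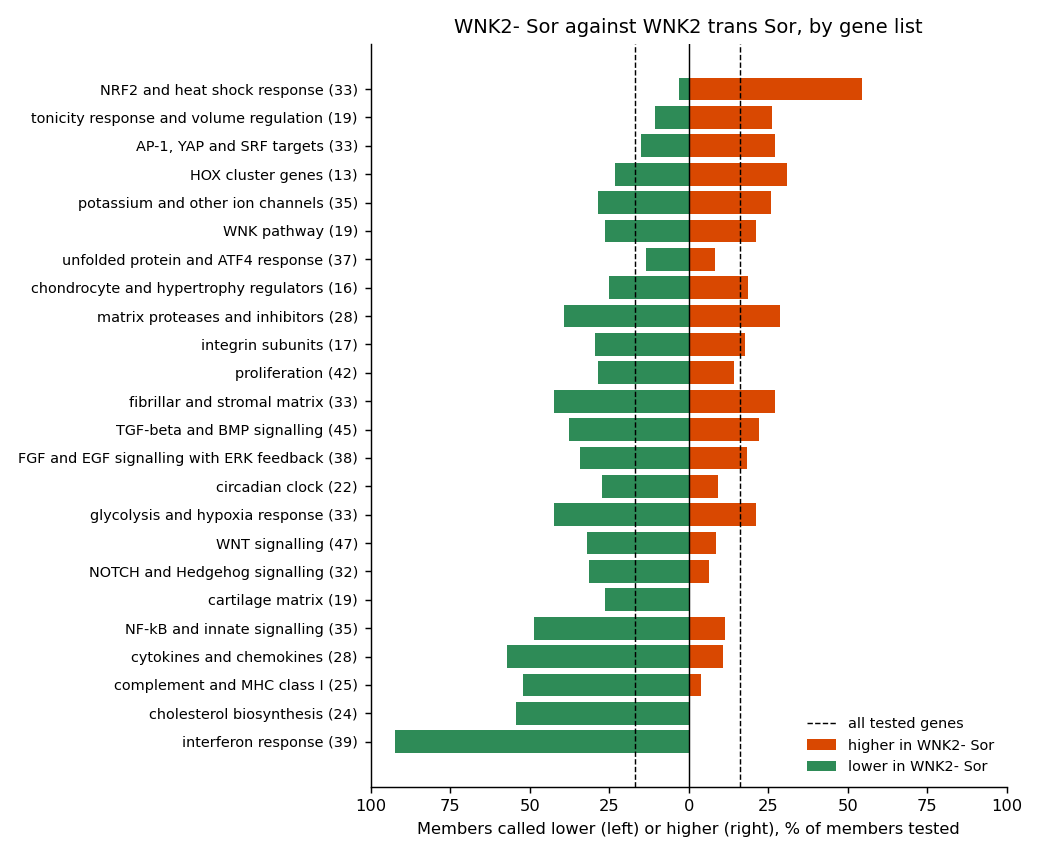
Share of the tested members of each gene list (number tested in parentheses) called lower (green, to the left) or higher (orange, to the right) in WNK2- Sor than in WNK2 trans Sor; dashed lines give the shares over all tested genes, 17.0% and 16.3%. Interferon response reaches furthest to the left at 92.3% and NRF2 and heat shock response furthest to the right at 54.5%.

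Stress-response genes of the NRF2 and heat shock pathways leaned the other way from the interferon list. NRF2 is the transcription factor that switches on enzymes against oxidants and electrophiles, and HSF1 that of the heat shock chaperones. Of the combined list 33 of 38 members were tested, of which 18 were called higher and 1 lower in WNK2- Sor, with a median log2 fold change of 0.47. NQO1, a quinone reductase (GRCh38 chromosome 16, 69706996 to 69726951), was 3346, 3603, 3837 and 3804 normalized counts in the WNK2- Sor libraries and 1329.7, 1188, 1345 and 1150.4 in the WNK2 trans Sor libraries (log2 fold change 1.54, standard error 0.11, adjusted p = 7.51e-11). OSGIN1 (405 ± 63 normalized counts in WNK2- Sor and 96.5 ± 42.1 in WNK2 trans Sor, log2 fold change 2.07, standard error 0.26, adjusted p = 5.91e-07), TXNRD1, thioredoxin reductase (8775 ± 384 normalized counts in WNK2- Sor and 4353 ± 322 in WNK2 trans Sor, log2 fold change 1.01, standard error 0.08, adjusted p = 1.01e-10), and HMOX1, heme oxygenase (626 ± 112 normalized counts in WNK2- Sor and 313 ± 43.8 in WNK2 trans Sor, log2 fold change 1.0, standard error 0.16, adjusted p = 2.18e-05), were called higher. Among the chaperones, HSPB1 was 2419, 3459, 2456 and 3024 normalized counts in the WNK2- Sor libraries and 1967, 819, 935 and 1146 in the WNK2 trans Sor libraries (log2 fold change 1.22, standard error 0.24, adjusted p = 0.000246) and BAG3, which brings HSPB8 to HSP70, rose with it (0.92, adjusted p = 6.21e-05). The glutathione synthesis genes GCLC (−0.03, adjusted p = 0.874) and GCLM (0.01, adjusted p = 0.934), often used as NRF2 markers, were not called. PGD of the pentose phosphate pathway was called lower (−0.31, adjusted p = 0.012).

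Cholesterol genes were one-sided in the other direction: 24 of 25 members were tested, of which 0 were called higher and 13 lower in WNK2- Sor, with a median log2 fold change of −0.48. INSIG1, which holds the SREBP transcription factors in the endoplasmic reticulum when sterols are plentiful, was 1588, 1461, 1548 and 1358 normalized counts in the WNK2- Sor libraries and 4790.4, 5545, 5925 and 5344 in the WNK2 trans Sor libraries (log2 fold change −1.86, standard error 0.08, adjusted p = 8.65e-15). SREBF2, the SREBP2 factor itself, was 2884 ± 177 normalized counts in WNK2- Sor and 5701 ± 638 in WNK2 trans Sor (log2 fold change −0.98, standard error 0.09, adjusted p = 4.76e-09) and STARD4, a sterol carrier, 528 ± 67.4 normalized counts in WNK2- Sor and 1278 ± 207 in WNK2 trans Sor (log2 fold change −1.27, standard error 0.14, adjusted p = 1.29e-07). SQLE, squalene epoxidase, was not called (−0.08, adjusted p = 0.429). Without WNK2 trans Sor replicate 1, 1 member was called higher.

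Matrix genes were divided. Of the cartilage matrix list 19 of 28 members were tested, of which 0 were called higher and 5 lower in WNK2- Sor, with a median log2 fold change of −0.08. The share called, 26.3%, was below the 33.3% of all tested genes, and all of it was lower, against 17.0% lower over all. HAPLN1, the link protein that ties aggrecan to hyaluronan, was 307, 298, 382 and 334 normalized counts in the WNK2- Sor libraries and 1853, 2775, 2122 and 1879 in the WNK2 trans Sor libraries (log2 fold change −2.71, standard error 0.13, adjusted p = 2.37e-14). LUM, lumican, had 1 to 5 reads in the null and 85 to 102 in the transfected libraries. ACAN was 7.51, 10.8, 3.86 and 20.6 normalized counts in the WNK2- Sor libraries and 32.5, 23.1, 19 and 45 in the WNK2 trans Sor libraries, overlapping in 1 pair of libraries (log2 fold change −1.5, standard error 0.42, adjusted p = 0.00712), and COL2A1 9.56, 15, 7.73 and 15.9 normalized counts in the WNK2- Sor libraries and 21.7, 20.1, 25.4 and 29.4 in the WNK2 trans Sor libraries (log2 fold change −1.01, standard error 0.28, adjusted p = 0.00716). Both were 2-fold or more below the libraries labelled WT Sor (112 ± 11.3 and 58.7 ± 13.1) in the null and the transfected cells alike, at counts near the limit. COMP and MATN3 were not called, at 7.28 ± 1.34 normalized counts in WNK2- Sor and 9.24 ± 7.58 in WNK2 trans Sor and at 20.3 ± 4.7 normalized counts in WNK2- Sor and 21.3 ± 16.6 in WNK2 trans Sor respectively. Without WNK2 trans Sor replicate 1, 4 members of the list were called higher, 2 without replicate 3, and with at least 10 counts demanded in all 8 libraries 2 were called lower.

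Hyaluronan genes were looked at after CEMIP had been seen among the largest falls. HAS2, the main hyaluronan synthase of mesenchymal cells, was 194, 142, 176 and 175 normalized counts in the WNK2- Sor libraries and 1393, 1554, 1525 and 1349.7 in the WNK2 trans Sor libraries (log2 fold change −3.08, standard error 0.12, adjusted p = 5.03e-16) and stood at 4150.1 ± 196 in the libraries labelled WT Sor. HAS3 was 73.5 ± 8.01 normalized counts in WNK2- Sor and 38.1 ± 12.3 in WNK2 trans Sor (log2 fold change 0.94, standard error 0.26, adjusted p = 0.00573) and HAS1 was at 7.56 ± 4.08 normalized counts in WNK2- Sor and 11.3 ± 5.61 in WNK2 trans Sor, which was not called (adjusted p = 0.508). A synthase, a degrading enzyme and the link protein of hyaluronan were thus all lower in the null line, and HAS3 higher.

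Of the fibrillar and stromal matrix list 33 of 37 members were tested, of which 9 were called higher and 14 lower in WNK2- Sor, with a median log2 fold change of −0.27. VCAN, versican, was 13.7, 11.7, 19.3 and 18.7 normalized counts in the WNK2- Sor libraries and 195, 283, 339 and 262 in the WNK2 trans Sor libraries (log2 fold change −4.10, standard error 0.28, adjusted p = 1.7e-11), and SULF2, the second heparan sulfatase, fell with SULF1 (1038 ± 92.9 normalized counts in WNK2- Sor and 4385 ± 468 in WNK2 trans Sor, log2 fold change −2.08, standard error 0.10, adjusted p = 1.16e-14). Collagen III (COL3A1) was 1086, 1091, 999 and 1086 normalized counts in the WNK2- Sor libraries and 5141, 4089, 4239.9 and 3492 in the WNK2 trans Sor libraries (log2 fold change −1.99, standard error 0.09, adjusted p = 4.53e-15), and fibronectin (FN1) was 146658 ± 7395 normalized counts in WNK2- Sor and 328481 ± 46963 in WNK2 trans Sor (log2 fold change −1.16, standard error 0.11, adjusted p = 1.29e-08). The collagen VI chains COL6A1 (−1.16) and COL6A3 (−1.06) were lower too, and COL1A1 was not called (−0.27, adjusted p = 0.11). Among the 9 that were higher were ABI3BP, the crosslinking enzymes LOXL4 (1.99) and LOXL1 (0.78) and THBS1, thrombospondin 1 (0.82, adjusted p = 0.0154, lost without WNK2 trans Sor replicate 2).

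The proteases did not move as a block. Of their list 28 of 39 members were tested, of which 8 were called higher and 11 lower in WNK2- Sor, with a median log2 fold change of −0.15. MMP13, the collagenase that cuts collagen II (GRCh38 chromosome 11, 102942995 to 102955734), was 56, 51.7, 45.4 and 69.2 normalized counts in the WNK2- Sor libraries and 187, 248, 243 and 259 in the WNK2 trans Sor libraries (log2 fold change −2.07, standard error 0.17, adjusted p = 4.43e-10), with 119 ± 11.8 in the libraries labelled WT Sor. MMP3, stromelysin 1 (GRCh38 chromosome 11, 102835801 to 102843803), lies beside it on chromosome 11 and was higher in the null line, 1493, 1567, 1518 and 1619 normalized counts in the WNK2- Sor libraries and 271, 409.5, 631 and 483 in the WNK2 trans Sor libraries (log2 fold change 1.79, standard error 0.17, adjusted p = 5.62e-09), with 21.9 ± 2.96 in the libraries labelled WT Sor. The null line thus had the lowest MMP13 and the highest MMP3 of the 3 sorbitol groups. The aggrecanase ADAMTS5 was 24.6, 25, 31.9 and 32.7 normalized counts in the WNK2- Sor libraries and 197, 124, 165 and 194 in the WNK2 trans Sor libraries (log2 fold change −2.58, standard error 0.25, adjusted p = 1.53e-08), and the serine protease HTRA1 278 ± 9.12 normalized counts in WNK2- Sor and 1583 ± 102 in WNK2 trans Sor (log2 fold change −2.51, standard error 0.10, adjusted p = 7.24e-16). ADAMTS3 (−3.73), MMP9 (−1.33) and MMP2 (−1.04) were lower. ADAMTS10 (1.43), ADAMTS9 (0.84, adjusted p = 0.017, lost without WNK2- Sor replicate 4 or WNK2 trans Sor replicate 1) and the membrane type MMP14 (0.63) were higher.

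Of the regulators of chondrocyte maturation, 16 of 24 members were tested, of which 3 were called higher and 4 lower in WNK2- Sor, with a median log2 fold change of 0.07. RUNX2, which drives hypertrophy and MMP13, was 209.6, 238, 256 and 254 normalized counts in the WNK2- Sor libraries and 816, 1092, 1146 and 1120.1 in the WNK2 trans Sor libraries (log2 fold change −2.13, standard error 0.12, adjusted p = 2.72e-13). VEGFA was 2449 ± 146 normalized counts in WNK2- Sor and 6387 ± 604 in WNK2 trans Sor (log2 fold change −1.38, standard error 0.10, adjusted p = 5.19e-11) and RUNX3 1559 ± 86.7 normalized counts in WNK2- Sor and 2657 ± 515 in WNK2 trans Sor (log2 fold change −0.77, standard error 0.11, adjusted p = 5.76e-06). EPAS1, which encodes HIF-2 alpha, was higher in the null line (9507 ± 387 normalized counts in WNK2- Sor and 4106 ± 404 in WNK2 trans Sor, log2 fold change 1.21, standard error 0.09, adjusted p = 5.99e-11). The list had 1 member called higher when the 8 libraries were fitted alone or when WNK2 trans Sor replicate 2 or WNK2- Sor replicate 2 was left out.

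In the TGF-beta and BMP list 45 of 49 members were tested, of which 10 were called higher and 17 lower in WNK2- Sor, with a median log2 fold change of −0.26. Ligands went both ways. BMP2 was 47.8, 51.7, 41.5 and 48.6 normalized counts in the WNK2- Sor libraries and 259.9, 229.9, 359 and 263 in the WNK2 trans Sor libraries (log2 fold change −2.55, standard error 0.17, adjusted p = 1.37e-11), INHBA, the activin A subunit, 3119, 3008, 3187 and 2905 normalized counts in the WNK2- Sor libraries and 10056, 10705, 10556 and 10924 in the WNK2 trans Sor libraries (log2 fold change −1.79, standard error 0.09, adjusted p = 7e-14), and GDF6 −2.68 (adjusted p = 5.75e-07), while BMP7 (0.69, adjusted p = 3.09e-05) and GDF15 (0.64, adjusted p = 0.0131) were higher. SMAD1, a transducer of BMP signals, was lower (−1.65, adjusted p = 8.16e-12). 4 target or feedback genes of BMP signalling were higher: SMAD6, an inhibitory SMAD, was 720.4, 739.5, 633 and 754 normalized counts in the WNK2- Sor libraries and 255, 144, 197 and 219 in the WNK2 trans Sor libraries (log2 fold change 1.81, standard error 0.15, adjusted p = 3.73e-10), ID1 1662 ± 128 normalized counts in WNK2- Sor and 712 ± 196 in WNK2 trans Sor (log2 fold change 1.23, standard error 0.16, adjusted p = 9.55e-07), ID3 1341 ± 167 normalized counts in WNK2- Sor and 571 ± 200.2 in WNK2 trans Sor (log2 fold change 1.23, standard error 0.21, adjusted p = 5.44e-05) and ID2 1.16 (adjusted p = 0.000828). For SMAD6 the level in the libraries labelled WT Sor was 699.6 ± 29.2, next to the null line, and for INHBA 3003 ± 112, also next to the null line, so in both cases the transfected cells were the group apart. GREM1, a BMP antagonist, was 9806 ± 746 normalized counts in WNK2- Sor and 7338 ± 1296 in WNK2 trans Sor (log2 fold change 0.42, standard error 0.11, adjusted p = 0.0056).

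Receptor tyrosine kinase signalling had lower feedback genes beside higher ligands. Of that list 38 of 50 members were tested, of which 7 were called higher and 13 lower in WNK2- Sor, with a median log2 fold change of −0.16. SPRY1, an ERK feedback inhibitor, was 12.3, 10.8, 12.6 and 11.2 normalized counts in the WNK2- Sor libraries and 395, 329, 338 and 338 in the WNK2 trans Sor libraries, 29.5-fold lower (log2 fold change −4.88, standard error 0.18, adjusted p = 2.37e-16), and SPRY2 (−1.42, adjusted p = 3.36e-10) and the phosphatase DUSP6 (−0.72, adjusted p = 2.42e-06) were lower as well. EGR1 was 119, 95, 142 and 98.2 normalized counts in the WNK2- Sor libraries and 2090.2, 860.2, 1022 and 1085 in the WNK2 trans Sor libraries, and its fellow immediate early gene FOS was 129, 108, 99.5 and 86.9 normalized counts in the WNK2- Sor libraries and 1557, 996, 928 and 735 in the WNK2 trans Sor libraries (log2 fold change −3.31, standard error 0.25, adjusted p = 8.57e-11). For EGR1 and FOS the transfected replicate 1 was the highest. The ligands HBEGF (1518 ± 73.5 normalized counts in WNK2- Sor and 701 ± 21 in WNK2 trans Sor, log2 fold change 1.12, standard error 0.09, adjusted p = 7.83e-10), EGF (1.5, adjusted p = 0.000178) and FGF5 (0.97, adjusted p = 0.000327) were higher, as was EREG (0.96), and no ligand of the list was called lower. FGF13, a member of the FGF family that is not a secreted ligand, was higher too (2.93). Among the receptors ERBB4 was called higher (2.96, adjusted p = 0.000779), with 14 to 28 reads in the null and 0 to 4 in the transfected libraries. Its fold change therefore rests on almost no transfected reads. FGFR2 was lower (11.8 ± 7.83 normalized counts in WNK2- Sor and 75.1 ± 17 in WNK2 trans Sor, log2 fold change −2.71, standard error 0.32, adjusted p = 2.56e-07).

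Of the AP-1, YAP and SRF targets 33 of 38 members were tested, of which 9 were called higher and 5 lower in WNK2- Sor, with a median log2 fold change of 0.08. Beside TAGLN, ANKRD1, a YAP target, was higher in the null line (5807, 5444, 5639 and 5859 normalized counts in the WNK2- Sor libraries and 1485, 1729, 1318 and 1296 in the WNK2 trans Sor libraries, log2 fold change 1.96, standard error 0.14, adjusted p = 2.16e-11), as was FOSL2 (0.76, adjusted p = 7.95e-07). WWTR1, which encodes the YAP partner TAZ, was lower (2164 ± 167 normalized counts in WNK2- Sor and 4941 ± 801 in WNK2 trans Sor, log2 fold change −1.19, standard error 0.11, adjusted p = 6.28e-09). The AP-1 members FOS, given above, and JUND (−1.28 to −0.51 over 18 alternative settings) were called lower as well. Of the integrin subunits 17 of 24 members were tested, of which 3 were called higher and 5 lower in WNK2- Sor, with a median log2 fold change of −0.15, with ITGA7 (−1.35), ITGB8 (−1.17) and the collagen II receptor ITGA10 (−0.94) lower. The higher calls of ITGB4 and ITGB2 depended on single libraries, and 1 integrin was called higher without WNK2 trans Sor replicates 2 or 3 or WNK2- Sor replicate 2.

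In the WNT list 47 of 60 members were tested, of which 4 were called higher and 15 lower in WNK2- Sor, with a median log2 fold change of −0.26. WNT5A, a noncanonical ligand, was 2742, 2268, 2623 and 2649 normalized counts in the WNK2- Sor libraries and 7090.0, 7284, 7939.7 and 7313 in the WNK2 trans Sor libraries (log2 fold change −1.53, standard error 0.10, adjusted p = 6.05e-12), whereas WNT5B was 1229.9, 1292, 1149 and 1195 normalized counts in the WNK2- Sor libraries and 549.9, 508, 531 and 701 in the WNK2 trans Sor libraries (log2 fold change 1.09, standard error 0.13, adjusted p = 4.04e-07), so the paralogues went in opposite directions. The WNT antagonist FRZB (708 ± 51.6 normalized counts in WNK2- Sor and 1990.2 ± 208 in WNK2 trans Sor, log2 fold change −1.49, standard error 0.09, adjusted p = 1.27e-12) and the receptor FZD7 (−1.0, adjusted p = 2.79e-07) were lower. NKD2, a WNT inhibitor, was higher (58.5 ± 14.9 normalized counts in WNK2- Sor and 8.69 ± 5.53 in WNK2 trans Sor, log2 fold change 2.77, standard error 0.47, adjusted p = 5.87e-05), and it lies in the stretch of chromosome 5 that holds SLC12A7. Of the NOTCH and Hedgehog list 32 of 37 members were tested, of which 2 were called higher and 10 lower in WNK2- Sor, with a median log2 fold change of −0.10. The share called, 37.5%, was near the 33.3% of all tested genes, while the share lower was 31.25% against 17.0%. NOTCH1 (3843 ± 391 normalized counts in WNK2- Sor and 1748 ± 402 in WNK2 trans Sor, log2 fold change 1.14, standard error 0.16, adjusted p = 3.95e-06) and its target NRARP (1.14, adjusted p = 5.93e-06) were higher, and both lie at the end of chromosome 9 where neighbours also rose (0.47 over 86 neighbours around NOTCH1). The target HEY1 (24.7 ± 7.48 normalized counts in WNK2- Sor and 89.9 ± 23.3 in WNK2 trans Sor, log2 fold change −1.84, standard error 0.20, adjusted p = 1.16e-07) and the Hedgehog co-receptors GAS1 (−2.51) and BOC (−1.13) were lower.

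The lists and markers named 1006 distinct genes, of which 825 were tested. Of the 181 others, 148 had fewer than 10 reads in every library and 89 none, and counting that skips reads on overlapping genes can leave an expressed gene at 0.

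The remaining lists each had members called in both directions. Against 33.3% of all tested genes, the share called was 63.6% for glycolysis and hypoxia, 54.3% for ion channels and 53.8% for HOX genes. It was 42.9% for proliferation, 36.4% for the circadian clock and 21.6% for the unfolded protein and ATF4 list. Of the ion channels 35 of 43 members were tested, of which 9 were called higher and 10 lower in WNK2- Sor, with a median log2 fold change of 0.01. KCNQ3, an M-current potassium channel subunit, was 174, 149, 185 and 225 normalized counts in the WNK2- Sor libraries and 6.02, 15.1, 6.34 and 19.3 in the WNK2 trans Sor libraries (log2 fold change 3.92, standard error 0.38, adjusted p = 9.94e-09), and CACNA1H, a T-type calcium channel, 210.3, 223, 192 and 198 normalized counts in the WNK2- Sor libraries and 43.3, 40.2, 49.7 and 28.5 in the WNK2 trans Sor libraries (log2 fold change 2.36, standard error 0.15, adjusted p = 3.21e-12). The sodium channel subunit SCNN1A (−2.18), the potassium channel modifier KCNS3 (−2.11) and connexin 43, GJA1 (−1.5), were lower. For CACNA1H the level in the libraries labelled WT Sor was 187 ± 11.3, next to the null line. Of glycolysis and hypoxia genes 33 of 36 members were tested, of which 7 were called higher and 14 lower in WNK2- Sor, with a median log2 fold change of −0.18. Here CA9, carbonic anhydrase 9, was 14.8 ± 5.22 normalized counts in WNK2- Sor and 169 ± 75.1 in WNK2 trans Sor (log2 fold change −3.51, standard error 0.31, adjusted p = 1.77e-09), ENO2 was lower (−1.40, adjusted p = 1.26e-10), and CA12, its relative, higher (561 ± 17.8 normalized counts in WNK2- Sor and 237 ± 15.5 in WNK2 trans Sor, log2 fold change 1.25, standard error 0.10, adjusted p = 3.19e-10).

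Of proliferation genes 42 of 45 members were tested, of which 6 were called higher and 12 lower in WNK2- Sor, with a median log2 fold change of −0.09. TOP2A (−0.76, adjusted p = 0.000105) and PCNA (−0.55, adjusted p = 0.000864) were lower, CDK6 (1.01, adjusted p = 7.17e-05) and CCND1 (0.49, adjusted p = 0.00286) higher, and MKI67 was not called (0.30, adjusted p = 0.0913). In the circadian clock list 22 of 26 members were tested, of which 2 were called higher and 6 lower in WNK2- Sor, with a median log2 fold change of −0.11, with the repressors BHLHE40 (−1.06, adjusted p = 2.08e-09) and BHLHE41 (−0.95) lower and CRY1 (0.54) and CRY2 (0.65) higher. Of the unfolded protein and ATF4 list 37 of 40 members were tested, of which 3 were called higher and 5 lower in WNK2- Sor, with a median log2 fold change of −0.09, below the background share, although 6 were called higher and 11 lower with the GC and length correction. Of the HOX genes 13 of 34 members were tested, of which 4 were called higher and 3 lower in WNK2- Sor, with a median log2 fold change of 0.11, among them HOXA2 (−1.5) and HOXA7 (1.25).

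The osteoarthritis lists of the study were also followed. Its authors took them from published data on human cartilage and on primary chondrocytes treated with fibronectin fragments, not from these libraries. Of the genes it lists as lower 52 of 52 members were tested, of which 16 were called higher and 9 lower in WNK2- Sor, with a median log2 fold change of 0.04. COLEC12, a scavenger receptor, was 12.3, 16.7, 28 and 19.6 normalized counts in the WNK2- Sor libraries and 332, 383, 345 and 414 in the WNK2 trans Sor libraries (log2 fold change −4.29, standard error 0.17, adjusted p = 6.51e-16), and DHRS3, a retinaldehyde reductase, 681, 639, 611 and 564 normalized counts in the WNK2- Sor libraries and 6066, 4996, 5062 and 5354 in the WNK2 trans Sor libraries (log2 fold change −3.10, standard error 0.11, adjusted p = 4.72e-17), while TLN2 (0.96) and RXRA (0.85) were higher. Of those it lists as higher 80 of 80 members were tested, of which 28 were called higher and 31 lower in WNK2- Sor, with a median log2 fold change of −0.08. LAMB3, a laminin chain, was 2942, 3597, 2804 and 3292 normalized counts in the WNK2- Sor libraries and 889, 509, 839 and 789 in the WNK2 trans Sor libraries (log2 fold change 2.06, standard error 0.14, adjusted p = 2.54e-11) and PAPSS2, which makes the sulfate donor for matrix sulfation, was 2050.0 ± 179 normalized counts in WNK2- Sor and 754 ± 65.2 in WNK2 trans Sor (log2 fold change 1.44, standard error 0.09, adjusted p = 5.9e-12), while PTGES, COL3A1 and the phospholipase PLD1 (−1.85) were lower. Of the 13 genes the study singles out for transfection under sorbitol, a list taken from these libraries and so not independent evidence of a direction, 4 were called higher (MMP3, IL1B, WNT5B and GREM1) and 5 lower (MMP9, MMP13, RUNX2, COL2A1 and ACAN). Both osteoarthritis lists had members called in both directions, with medians within 0.1 of 0 on the log2 scale.

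Gene position was examined because the null cells are 1 clone. The median log2 fold change by chromosome ran from −0.14 on chromosome 6 to 0.24 on chromosome 14. In windows of 5 Mb with at least 10 tested genes, 31 of 500 windows had a median above 0.3 and 35 below −0.3. The window that rose most was the first 5 Mb of chromosome 5 (positions 1 to 5000000), with a median of 1.22 over 22 genes, 20 of them called higher and none lower. The same window had a median of 1.05 between WNK2- Ctr and the libraries labelled WNK2 trans Ctr, which share no library with the sorbitol comparison, 1.16 for WNK2- Sor against the libraries labelled WT Sor, and −0.08 for WNK2 trans Sor against the libraries labelled WT Sor. It holds SLC12A7, NKD2, TRIP13 (0.69), a checkpoint ATPase, and TERT, telomerase, which had 43, 50.9, 46.4 and 41.1 normalized counts in the null and 0, 3.01, 8.45 and 0 in the transfected libraries. Copy number was not measured here, and its part was not tested.

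The windows that fell most lay on the short arm of chromosome 9. From 5000001 to 10000000 the median was −0.77 over 16 genes (9 called lower, none higher), from 15000001 to 20000000 −0.75 over 17, and from 20000001 to 25000000 −0.74 over 12. JAK2, IL33 (−1.76), an alarmin cytokine, and SMARCA2, a chromatin remodelling ATPase (263 ± 21.9 normalized counts in WNK2- Sor and 700.4 ± 56.6 in WNK2 trans Sor, log2 fold change −1.41, standard error 0.11, adjusted p = 8.69e-11), lie on this arm, as does VLDLR (−1.19, −0.65 over 15 neighbours). IL33 was near the limit, with 4 to 18 reads in the null and 25 to 38 in the transfected libraries. In the isotonic pair these windows were at −0.43, −0.52 and −0.16. Against the libraries labelled WT Sor they were at −0.34, −0.40 and −0.59 for WNK2- Sor and at 0.25, 0.26 and 0.20 for WNK2 trans Sor. The genes around SULF1 had a median of −0.65 over 15 neighbours, those around OASL 0.07 over 66 neighbours, those around PTGS2 −0.29 over 19 neighbours and those around NQO1 0.04 over 82 neighbours, all far smaller than the change of the gene itself.

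Whether the gap between the lines depended on the medium was tested as an interaction, the difference in sorbitol minus the difference between WNK2- Ctr and the libraries labelled WNK2 trans Ctr. Since the latter libraries held less WNK2 than WT Ctr, the isotonic side does not compare a null with a WNK2-rich line. The test called 3443 of 16600 genes (20.7%), 1544 positive and 1899 negative, and without WNK2 trans Sor replicate 1 2407 were positive. WNK2 itself was −3.08 in sorbitol and 0.69 in isotonic medium (difference −3.77, standard error 0.29, adjusted p = 5.96e-10). Over the interferon list, 25 members were called negative and 1 positive, and the median isotonic difference was −0.73. Over the cholesterol list 13 were negative, none positive, and the median isotonic difference was 0.07. In the NRF2 and heat shock list 5 were called in each direction, with an isotonic median of 0.45.

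The 5 genes with the smallest p in each direction changed size or sign with the medium. THBD, thrombomodulin, was −1.17 in sorbitol and −4.86 in isotonic medium (difference 3.69, standard error 0.17, adjusted p = 1.09e-13). IGFBP3 was −0.54 in sorbitol and −4.13 in isotonic medium (difference 3.59, standard error 0.16, adjusted p = 4.36e-14) and IGFBP5 −1.11 in sorbitol and −4.13 in isotonic medium (difference 3.02, standard error 0.18, adjusted p = 6.42e-12); both bind insulin-like growth factors. GJA1 was −1.5 in sorbitol and −3.30 in isotonic medium (difference 1.79, standard error 0.13, adjusted p = 3.98e-10). PROS1, the anticoagulant protein S, was 0.40 in sorbitol and −1.47 in isotonic medium (difference 1.88, standard error 0.14, adjusted p = 3.69e-10), so it reversed. In the negative direction CDH5, VE-cadherin, was −2.17 in sorbitol and 3.56 in isotonic medium (difference −5.73, standard error 0.23, adjusted p = 6.07e-15), and INHBA was −1.79 in sorbitol and 0.93 in isotonic medium (difference −2.72, standard error 0.13, adjusted p = 1.09e-13); both reversed. F3, tissue factor, was 0.56 in sorbitol and 3.43 in isotonic medium (difference −2.86, standard error 0.15, adjusted p = 1.04e-12), ANXA3 0.02 in sorbitol and 2.45 in isotonic medium (difference −2.43, standard error 0.14, adjusted p = 2.66e-12) and DNER, a NOTCH ligand, −0.06 in sorbitol and 2.17 in isotonic medium (difference −2.23, standard error 0.11, adjusted p = 3.94e-13). For ANXA3 and DNER the difference in sorbitol was smaller than its standard error and was not called.

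**Figure D5:**
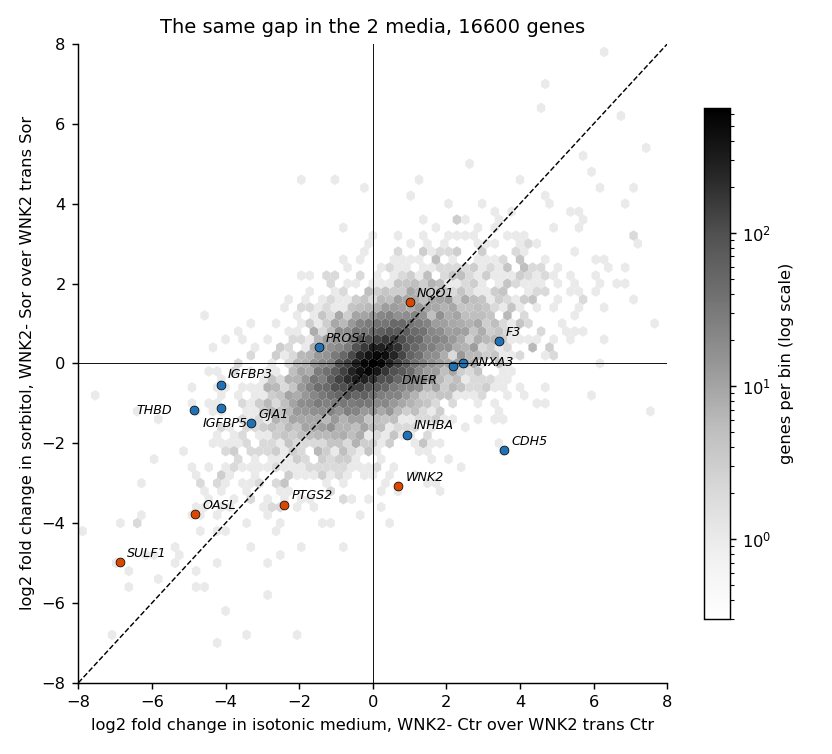
Each gene's log2 fold change between the null and transfected lines in isotonic medium (x axis) and in sorbitol (y axis), binned over 16600 genes (grey, log scale); blue points are the genes with the smallest interaction p, orange points genes named earlier, and the dashed line marks equal differences. WNK2 lies at 0.69 and −3.08, and CDH5 at 3.56 and −2.17.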

How the data were processed

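RNA-seq counts of 24 libraries from T/C-28a2 cells in 6 groups of 4 were used. Per the labels and the methods of the study, poly(A) libraries were made with a kit that does not mark strand, so reads of a gene and of an antisense or overlapping partner cannot be told apart. The authors deposited 1 file of raw counts per library, whole reads per gene for 62703 identifiers, none of them a non-gene row, and their processing notes name FastQC 0.11.9, HISAT2 2.2.1, HTSeq 2.0.2 and build GRCh38; DESeq2 1.38.3 is also named. Counting settings are not given in the sources used here. Positions are those of GENCODE release 29, and symbols come from a separate list of gene names.

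The counts were fitted with edgeR 4.0.16 (limma 3.58.1, R 4.3.3) as 6 group means in 1 quasi-likelihood model after TMM scaling, keeping genes with at least 10 counts in enough libraries and 15 in total. The contrast was WNK2- Sor minus WNK2 trans Sor, and genes with an adjusted p under 0.05 were called. Standard errors were taken as the size of the log2 fold change over the square root of its F statistic. The medium was tested as an interaction of the 4 groups concerned. Totals were 14153002 to 25664619 reads over the 24 libraries, and their number limits the precision of low counts. The script was tested on simulated data.

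The comparison, gene lists and markers were chosen with earlier results of these data known. Named by rule were WNK1 to WNK4, the 12 largest rises and falls among genes averaging log2 CPM 3 or more whose groups did not overlap, up to 3 members per gene list and direction among those averaging log2 CPM 1 or more, the 13 genes the study singles out, and the 5 genes with the smallest interaction p in each direction. All other genes were named after their values were seen, and values of a few genes are not reported here. Alternatives were RLE and upper-quartile scaling, DESeq2 1.42.0, other count filters, the 8 libraries alone, a replicate block, a minimum change, thinning to the smallest total, removal of GC and length trends, and leaving out each library.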

Additional observations from a re-analysis of the deposited data

Results flagged for a closer look

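In 21 of 384 groups of 4 libraries (192 genes in each of the compared groups), 1 library stood apart from the other 3 by more than Dixon's 95% limit for the gap as a share of the group's range, where chance gives about 1 in 20. WNK2 trans Sor replicate 1 was the library apart for 8 genes, with ADAMTS3 91.5 normalized counts against 136 to 141 (gap 0.905 of the range), BST2 478 normalized counts against 194 to 239.6 (gap 0.838 of the range) and IGFBP5 2632 normalized counts against 1655 to 1759 (gap 0.893 of the range). The same library held LOXL1 952 normalized counts against 662 to 699 (gap 0.875 of the range), PIEZO2 3497 normalized counts against 4782 to 4851 (gap 0.949 of the range) and RUNX2 816 normalized counts against 1092 to 1146 (gap 0.838 of the range). The same library held SPRY1 395 normalized counts against 329 to 338 (gap 0.863 of the range) and TLN2 313 normalized counts against 429.6 to 453 (gap 0.831 of the range). WNK2 trans Sor replicate 2 held BHLHE41 266 normalized counts against 239 to 242 (gap 0.888 of the range), GDF6 45.2 normalized counts against 111 to 121 (gap 0.862 of the range) and VEGFA 5491 normalized counts against 6565 to 6776 (gap 0.836 of the range). WNK2 trans Sor replicate 4 held IRF9 92.7 normalized counts against 100.4 to 101 (gap 0.886 of the range) and SCG2 717 normalized counts against 921 to 957 (gap 0.846 of the range). WNK2- Sor replicate 2 held EGF 59.2 normalized counts against 72.9 to 74.4 (gap 0.903 of the range) and NKD2 80.9 normalized counts against 50.2 to 52.3 (gap 0.931 of the range). WNK2- Sor replicate 3 held CLU 568 normalized counts against 650.1 to 667 (gap 0.833 of the range), COL3A1 999 normalized counts against 1086 to 1091 (gap 0.948 of the range) and IGFBP3 231 normalized counts against 249.6 to 251 (gap 0.916 of the range). WNK2- Sor replicate 4 held FZD7 430.0 normalized counts against 326 to 339 (gap 0.878 of the range), GDF6 6.54 normalized counts against 16.4 to 18.4 (gap 0.831 of the range) and HOXA2 35.5 normalized counts against 43 to 43.5 (gap 0.943 of the range).

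The gap between the lines differed between media by the interaction test for 10 named genes. The difference, sorbitol minus isotonic on the log2 scale, was positive for GJA1 1.79, IGFBP3 3.59, IGFBP5 3.02, PROS1 1.88 and THBD 3.69, and negative for ANXA3 −2.43, CDH5 −5.73, DNER −2.23, F3 −2.86 and INHBA −2.72. The isotonic side uses the libraries labelled WNK2 trans Ctr, whose WNK2 level goes against their label.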

How the results depend on the processing

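The comparison kept its size under most settings. Against 5523 genes called, RLE scaling gave 5535, upper-quartile scaling 5530, DESeq2 5922, testing genes of any count 5069, asking for 10 or more reads in each of the 8 libraries 5005, the 8 libraries alone 4570, thinning 5334 and removal of GC and length trends 6689. The share of calls that were higher stayed between 45.8% and 51.3%. Asking for a change beyond 0.3 moved the counts most, to 2957 called, 1409 higher and 1548 lower, since that test is stricter by construction. Leaving out single libraries gave 4650 to 6313 genes called, 2212 to 3238 higher and 2380 to 3075 lower, the top of each range being reached without WNK2 trans Sor replicate 1. For the medium it gave 2853 to 4715 called, 1231 to 2407 positive and 1607 to 2308 negative, again highest without that library; the cause was not tested.

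Same-numbered libraries did not deviate together (correlations of −0.68, −0.72, 0.28 and 0.04 for numbers 1 to 4, and no WNK2- Sor library correlated best with its own number), so the numbers were not read as pairs. With a replicate block 5459 genes were called, 2763 higher and 2696 lower, and 3340 for the medium.

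Of 161 genes named by rule, 140 kept their call and direction in all 18 settings. Calls lost without single libraries were those of SLC12A2 (5 of 8 libraries), ITGB4 (3), ITGB2 and ADAMTS9 (2 each), and THBS1 and IL17RA (WNK2 trans Sor replicate 2 alone). The sign changed only for values that were not called. IL1A became 0.0161 with the block and 0.0558 with GC and length trends removed, MATN3 0.0711 after thinning and WNK4 −0.0152 with GC and length trends removed. Without single libraries COMP ranged from −0.7684 to 0.0721, IL1A from −0.1271 to 0.1007, MATN3 from −0.4207 to 0.5335 and ANXA3 from −0.0048 to 0.0389.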
